A study of Mus musculus with 12 samples.

Results

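The genes described here are 10 genes used to recognise T lymphocytes, measured in RNA from leukaemic mouse spleens. They are the CD3 chain genes Cd3d, Cd3e and Cd3g, the coreceptor genes Cd4 and Cd8a, the surface receptor genes Cd2, Cd28 and Cd5, and the kinase genes Lck and Zap70. Members were the rows carrying these symbols, with no filter on level, and all 10 were found among 24310 features. Each of the 12 libraries came from the spleen of C57BL/6 mice injected with CMM cells, labelled as an acute myeloid leukaemia cell line and marked with GFP; the series title names inv(16). Per the labels, treatment was intravenous, given 3 times on alternate days once about 1% of blood cells carried GFP, and a positive selection kit was used to enrich cells carrying c-Kit from spleens taken 1 day after the last dose. There were 4 libraries labelled CpG-STAT3dODN, a CpG oligonucleotide joined to a decoy that STAT3 binds, 4 labelled CpG-scrODN, the same kind of molecule with a scrambled decoy, and 4 labelled PBS, the vehicle. All mice carried the leukaemia and their spleens were those of the host. The series' design text speaks of sorted GFP+/c-Kit+ cells, whereas the protocol names only the c-Kit enrichment. The labels do not say how many mice stand behind a library, so p-values measure the spread between these libraries, which may be technical. CpG motifs are ligands of the receptor TLR9, and the question behind the series is what blocking STAT3 while triggering TLR9 does to gene expression in the leukaemia.

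The group words in the column headers went against the labels in all 12 libraries. The header word was SCR for the label CpG-STAT3dODN, PBS for the label CpG-scrODN, and DEC for the label PBS. Groups are therefore called by their labels throughout, and which treatment a direction belongs to cannot be told. The term oligonucleotide groups below means the groups labelled CpG-STAT3dODN and CpG-scrODN, whichever treatment they received. Replicate 4 labelled CpG-STAT3dODN and replicate 4 labelled PBS also stood apart from the other 10 libraries: Fos, an immediate-early transcription factor, was at 5.91 RPKM in the first and 12.9 RPKM in the second, against 486 to 1156 RPKM elsewhere. RPKM scales reads to transcript length and to library depth. Estimated depth was 31440000 to 36010000 reads per library, so an RPKM of 1 stood for about 31.4 reads per kilobase in the shallowest. The c-Kit gene Kit, the marker used for enrichment, was at 25.7 to 51.1 RPKM for the label CpG-STAT3dODN, 28.3 to 40.5 RPKM for CpG-scrODN and 10.5 to 37.8 RPKM for PBS.

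T cells recognise antigen through a receptor whose antigen-binding chains cannot signal alone. CD3 chains carry the signal into the cell: the kinase LCK, held at the membrane by the coreceptors CD4 or CD8, phosphorylates them, and the kinase ZAP-70 docks on the phosphorylated chains. CD28 gives the costimulatory signal, CD5 damps signalling and CD2 binds CD48 on partner cells. Not every one of these genes is used by T cells alone. In mice CD2 is also found on B cells, CD5 on B-1 cells, CD4 and CD8 alpha on subsets of dendritic cells, CD28 on plasma cells, and CD2, LCK and ZAP-70 on or in natural killer cells. The CD3 genes are the most restricted of the set. Bulk RNA cannot tell fewer cells of a type from less RNA per cell. No row for a T-cell receptor constant region was analysed here.

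The 3 CD3 genes lie next to each other on chromosome 9 and are shown first because they are the defining chains of the receptor complex. On mm10, which is the GRCm38 assembly, Cd3g spans chr9:44969572-44980431, Cd3d chr9:44981769-44987052 and Cd3e chr9:44998735-45009663. Cd3g is read from the minus strand and Cd3d from the plus strand, with start sites 1355 bases apart, so the pair point away from each other. The promoter windows below, from RefSeq for GRCm38.p6, run from 250 bases before the start site to 50 bases after it, 5' to 3' on the gene's strand. Their positions are chr9:44980382-44980681 (minus strand) for Cd3g, chr9:44981536-44981835 (plus strand) for Cd3d and chr9:45009562-45009861 (minus strand) for Cd3e. Capitals mark E-box letters CANNTG, which E proteins read in T-cell development, and the ETS-type letters AGGAAG, each on either strand.
Cd3g: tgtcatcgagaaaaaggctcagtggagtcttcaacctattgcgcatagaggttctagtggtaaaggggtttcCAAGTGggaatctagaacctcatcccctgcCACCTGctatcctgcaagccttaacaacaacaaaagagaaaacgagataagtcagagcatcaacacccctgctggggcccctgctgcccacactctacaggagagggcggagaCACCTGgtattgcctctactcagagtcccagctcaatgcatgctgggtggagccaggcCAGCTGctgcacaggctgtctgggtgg
Cd3d: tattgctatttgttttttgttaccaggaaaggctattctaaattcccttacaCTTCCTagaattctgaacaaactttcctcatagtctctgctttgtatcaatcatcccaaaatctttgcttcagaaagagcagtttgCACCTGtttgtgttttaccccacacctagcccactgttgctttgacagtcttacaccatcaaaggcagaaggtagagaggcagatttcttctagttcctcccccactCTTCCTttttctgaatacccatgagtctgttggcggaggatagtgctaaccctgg
Cd3e: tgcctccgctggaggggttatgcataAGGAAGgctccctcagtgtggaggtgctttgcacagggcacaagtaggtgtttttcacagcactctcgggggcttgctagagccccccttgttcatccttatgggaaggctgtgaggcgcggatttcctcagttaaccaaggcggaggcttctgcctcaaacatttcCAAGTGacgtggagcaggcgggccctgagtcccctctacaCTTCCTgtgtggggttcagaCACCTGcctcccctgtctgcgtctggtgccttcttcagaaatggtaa
The Cd3g window held 4 E-box matches and 0 ETS-type matches, the Cd3d window 1 and 2, and the Cd3e window 2 and 2. RUNX-type letters (TGTGGT, either strand) were found in 0 of these 3 windows. Promoters were in the table for 7 of the 10 genes, Cd3d, Cd3e, Cd3g, Lck, Cd5, Cd8a and Zap70, with 10 start sites in all, and not for Cd2, Cd28 and Cd4. Of these 10 windows, 10 held an E-box, 7 the ETS-type letters and 2 the RUNX-type letters. Among all 32851 promoter windows of the same length the shares were 72.3%, 35.4% and 16.8%. No measurement here bears on binding at these letters.

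Most of the T-cell genes were lower in both groups labelled with an oligonucleotide than in the libraries labelled PBS. No difference between the oligonucleotide groups was called. Without a filter on low values, 6 of the 10 genes were called lower in the libraries labelled CpG-STAT3dODN than in those labelled PBS, and 7 of 10 lower in those labelled CpG-scrODN than in those labelled PBS. A call is a Benjamini-Hochberg adjusted p under 0.05 over all features, from limma on log2(RPKM + 1) with moderated variances, two-sided. Of 19308 features tested this way, 1.47% were called lower in the first comparison and 3.29% in the second. Both comparisons use the same 4 libraries labelled PBS, so they are not independent. Every library labelled CpG-STAT3dODN was below every library labelled PBS for 9 of the 10 genes (4.52% of features), all but Cd4. The libraries labelled CpG-scrODN were all below those labelled PBS for 8 of 10 (9.36% of features), the exceptions being Cd4 and Cd8a. The median difference over the 10 genes was -0.78 for CpG-STAT3dODN and -0.81 for CpG-scrODN on the log2 scale, against -0.0042 and -0.0098 over all features. All 10 means were lower in both oligonucleotide groups than in PBS. Leaving out 1 library gave 2 to 5 calls for CpG-STAT3dODN, so that all 6 held in none of these fits, and 4 to 8 for CpG-scrODN. Restricting the fit to the 2 groups compared left 1 and 4 calls for CpG-STAT3dODN and CpG-scrODN.

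Only Cd2, Cd3g and Lck passed the filter that an RPKM of at least 1 be reached in at least 4 libraries. Cd3g passed only through the 4 libraries labelled PBS. Cd2 needed them too, since outside them it reached that level in only 2 libraries, both labelled CpG-STAT3dODN. For these 3 genes the values below come from the fit to the 10886 genes past the filter, in which 1.83% were called lower for CpG-STAT3dODN and 4.04% lower for CpG-scrODN, each against PBS. For the other 7 they come from the fit without a filter. The pseudocount of 1 shrinks differences of genes this low, so folds of mean RPKM are given beside them. In its lowest library a member stood for an estimated 5.0 reads (Cd28) to 42.4 reads (Lck), taking each gene's longest coding transcript in GENCODE.

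**Figure D1:**
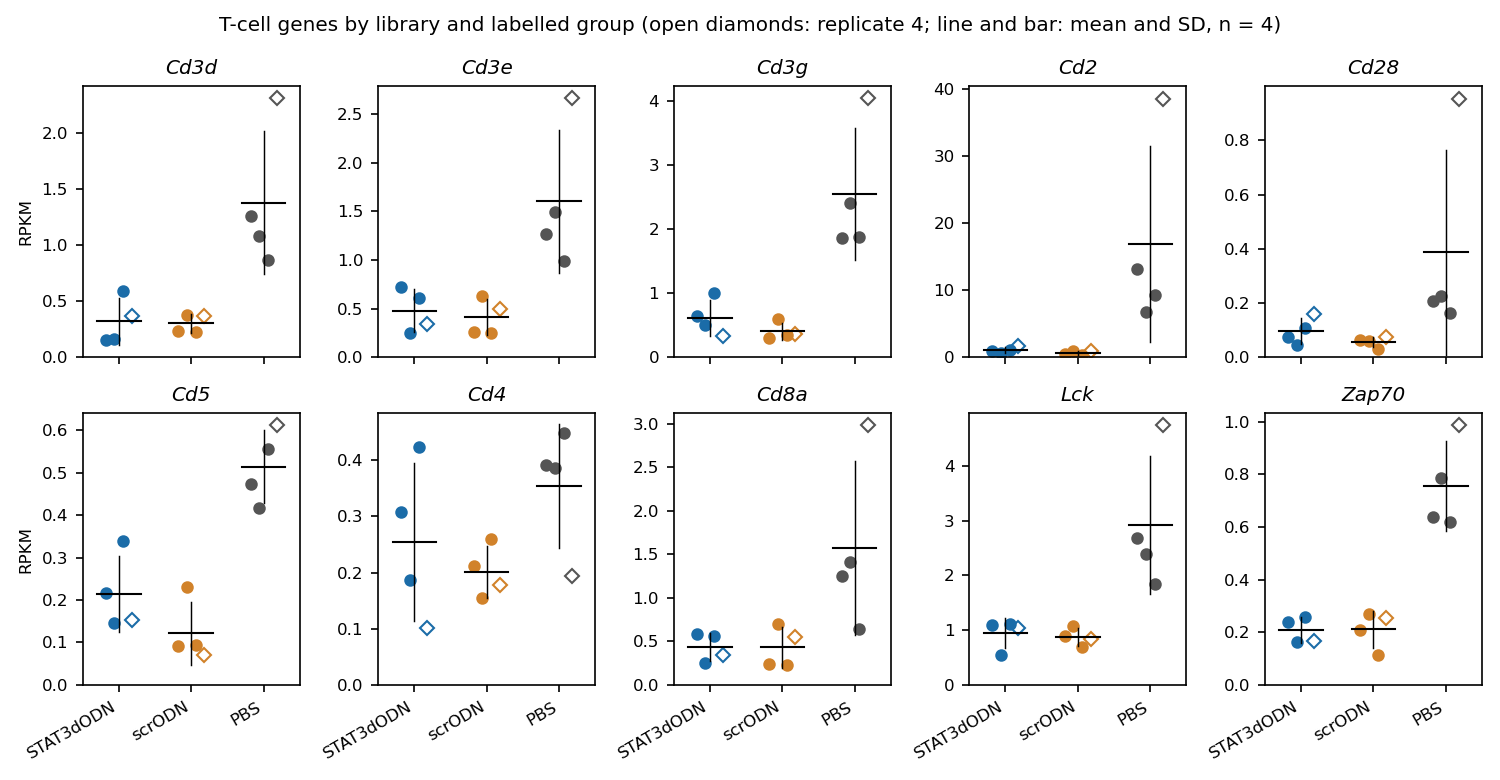
RPKM (linear axes from 0, one scale per gene) of the 10 T-cell genes in the 12 libraries, by labelled group; points are libraries, open diamonds are replicate 4, and lines and bars are mean and SD of 4 libraries. For 9 genes replicate 4 labelled PBS was the highest library of that group, while for Cd4 it was the lowest at 0.194 RPKM.

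Cd3g, which encodes the gamma chain, was at 0.639, 0.511, 0.999 and 0.335 RPKM in replicates 1 to 4 labelled CpG-STAT3dODN, at 0.306, 0.605, 0.353 and 0.366 RPKM in those labelled CpG-scrODN, and at 1.86, 2.42, 1.87 and 4.05 RPKM in those labelled PBS. Neither oligonucleotide group overlapped the libraries labelled PBS. Against PBS it was lower by 4.11-fold in mean RPKM for CpG-STAT3dODN, a log2 difference of -1.11 ± 0.19 (SE, limma adjusted p = 0.00964). For CpG-scrODN the fold was 6.26 and the difference -1.3 ± 0.19 (SE, limma adjusted p = 0.00163). In the fit to only the 2 groups compared, the Cd3g call for CpG-STAT3dODN was lost (limma adjusted p = 0.069). Since Cd3g had to differ to pass the filter, its adjusted p without a filter is given too, 0.0164 for CpG-STAT3dODN and 0.00407 for CpG-scrODN with limma.

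Cd3d, the delta chain gene, was at 0.156, 0.165, 0.593 and 0.365 RPKM in the libraries labelled CpG-STAT3dODN, at 0.235, 0.381, 0.23 and 0.369 RPKM in those labelled CpG-scrODN, and at 1.26, 1.09, 0.865 and 2.31 RPKM in those labelled PBS. The gap to PBS was again complete, and the difference was -0.83 for both CpG-STAT3dODN (4.31-fold, limma adjusted p = 0.039) and CpG-scrODN (4.54-fold, limma adjusted p = 0.0219). Cd3e, the epsilon chain gene, was at 0.724, 0.249, 0.61 and 0.338 RPKM in the libraries labelled CpG-STAT3dODN, at 0.261, 0.627, 0.252 and 0.502 RPKM in those labelled CpG-scrODN, and at 1.27, 1.49, 0.986 and 2.67 RPKM in those labelled PBS. It fell in CpG-scrODN by 0.85 with a 95% interval of -1.26 to -0.44 (3.90-fold, limma adjusted p = 0.0321). For CpG-STAT3dODN the Cd3e difference was -0.79 with an interval of -1.19 to -0.38 and did not pass (3.33-fold, limma adjusted p = 0.077). Cd3e differed by 0.07 (interval -0.34 to 0.48) between the oligonucleotide groups, so the comparisons with PBS were not shown to differ. The Cd3d calls for CpG-STAT3dODN and CpG-scrODN and the Cd3e call for CpG-scrODN were lost in 9, 4 and 6 of the 12 fits that leave out 1 library, with adjusted p up to 0.14, 0.0786 and 0.112 and differences within 1.5 times of those given. They were also lost in the fits to 2 groups (limma adjusted p = 0.213, 0.0694 and 0.0963) and with quantile normalization (limma adjusted p = 0.078, 0.0513 and 0.071).

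Averaged over the 3 chains, CD3 level was 0.308 to 0.734 RPKM in the libraries labelled CpG-STAT3dODN, 0.267 to 0.538 RPKM under the label CpG-scrODN and 1.24 to 3.01 RPKM under the label PBS. Within the group labelled CpG-scrODN all 3 chains were highest in replicate 2, as were Cd2, Lck, Cd5, Cd8a and Zap70. Replicate 3 labelled CpG-scrODN was the lowest for Cd3d and Cd3e and for Cd2, Lck, Cd28, Cd8a and Zap70. So 8 of the 10 genes shared their highest library there and 7 shared their lowest. In the group labelled CpG-STAT3dODN replicate 3 was the highest library for 6 genes and replicate 2 the lowest for 7.

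Neither coreceptor gene passed the test in either comparison with PBS over all libraries. Cd8a, at chr6:71373427-71379171, encodes the alpha chain of CD8 and was at 0.579, 0.255, 0.56 and 0.347 RPKM in the libraries labelled CpG-STAT3dODN, at 0.24, 0.701, 0.222 and 0.553 RPKM in those labelled CpG-scrODN, and at 1.25, 1.41, 0.641 and 2.98 RPKM in those labelled PBS. Replicate 3 labelled PBS, at 0.641 RPKM, lay below replicate 2 labelled CpG-scrODN. The differences from PBS were -0.77 (interval -1.29 to -0.26, 3.61-fold, limma adjusted p = 0.191) for CpG-STAT3dODN and -0.79 (interval -1.3 to -0.27, 3.66-fold, limma adjusted p = 0.117) for CpG-scrODN, and neither passed. Without replicate 3 labelled PBS the CpG-scrODN difference was -0.98 and passed (limma adjusted p = 0.0343). Without both libraries of low Fos the CpG-STAT3dODN difference was -0.51 (limma adjusted p = 0.268). Cd8b1, the gene of the CD8 beta chain that marks T cells more narrowly, ran close to it: the ratio of Cd8a to Cd8b1 was 0.66 to 0.799 in the libraries labelled CpG-STAT3dODN, 0.689 to 0.848 under the label CpG-scrODN and 0.623 to 0.995 in those labelled PBS.

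Cd4, at chr6:124864693-124888247, was at 0.307, 0.187, 0.424 and 0.102 RPKM in the libraries labelled CpG-STAT3dODN, at 0.212, 0.155, 0.26 and 0.177 RPKM in those labelled CpG-scrODN, and at 0.392, 0.386, 0.448 and 0.194 RPKM in those labelled PBS. All 3 groups overlapped. Its differences from PBS were -0.11 (interval -0.29 to 0.07, limma adjusted p = 0.821) for CpG-STAT3dODN and -0.17 (interval -0.35 to 0.01, limma adjusted p = 0.362) for CpG-scrODN. In both libraries of low Fos, replicate 4 labelled CpG-STAT3dODN and replicate 4 labelled PBS, Cd4 was the lowest of its group, and the part of that difference between libraries was not tested. In replicate 4 labelled PBS the ratio of Cd8a to Cd4 was 15.4, the highest of the 12 libraries, and the lowest of that group was 1.43. The ratio was 1.32 to 3.42 in the libraries labelled CpG-STAT3dODN and 0.852 to 4.54 in those labelled CpG-scrODN.

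Cd2 was the most abundant member in the libraries labelled PBS and the one with the widest gap between groups. It lies at chr3:101275908-101287939 and encodes an adhesion receptor. Its level was 0.961, 0.625, 1.12 and 1.65 RPKM in the libraries labelled CpG-STAT3dODN, 0.519, 0.984, 0.292 and 0.907 RPKM in those labelled CpG-scrODN, and 13.1, 6.84, 9.36 and 38.6 RPKM in those labelled PBS. The lowest library labelled PBS was above the highest of the other groups. Cd2 fell by 2.83 ± 0.40 in CpG-STAT3dODN against PBS (SE, 15.6-fold, limma adjusted p = 0.00296). In CpG-scrODN it fell by 3.14 ± 0.40 (SE, 25.1-fold, limma adjusted p = 0.000816). Since Cd2 passed the filter only with the libraries labelled PBS, its adjusted p without a filter is given too. With limma it was 0.0102 for CpG-STAT3dODN and 0.00306 for CpG-scrODN. In the filtered fit, leaving out any 1 library kept both calls. Differences were then -3.13 to -2.35 for CpG-STAT3dODN and -3.44 to -2.66 for CpG-scrODN. The filter was set once on all 12 libraries, so these fits share the choice that let Cd2 in. The folds leaned on replicate 4 labelled PBS, without which they were 8.97 for CpG-STAT3dODN and 14.5 for CpG-scrODN.

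Set against the CD3 chains, Cd2 was 1.53 to 4.76 times their mean level in the libraries labelled CpG-STAT3dODN, 1.05 to 2.20 times under the label CpG-scrODN and 4.11 to 12.8 times under the label PBS. The ratio in CpG-scrODN did not overlap that in PBS, whereas that in CpG-STAT3dODN did, through replicate 4 at 4.76. These ratios are given without a test. In that same library the B-cell receptor gene Cd79a was at 30.4 RPKM, against 7.27 to 11.8 RPKM in the other 3 of its group, and the CD3 mean was 0.346 RPKM, within the range of the group. The ratio of Cd2 to Cd79a was 0.0542 to 0.115 in the libraries labelled CpG-STAT3dODN, 0.0624 to 0.387 under the label CpG-scrODN and 0.152 to 0.206 under the label PBS. For the CD3 mean the ratio to Cd79a was 0.0114 to 0.0751, 0.0343 to 0.176 and 0.0161 to 0.0369 in the libraries labelled CpG-STAT3dODN, CpG-scrODN and PBS.

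**Figure D2:**
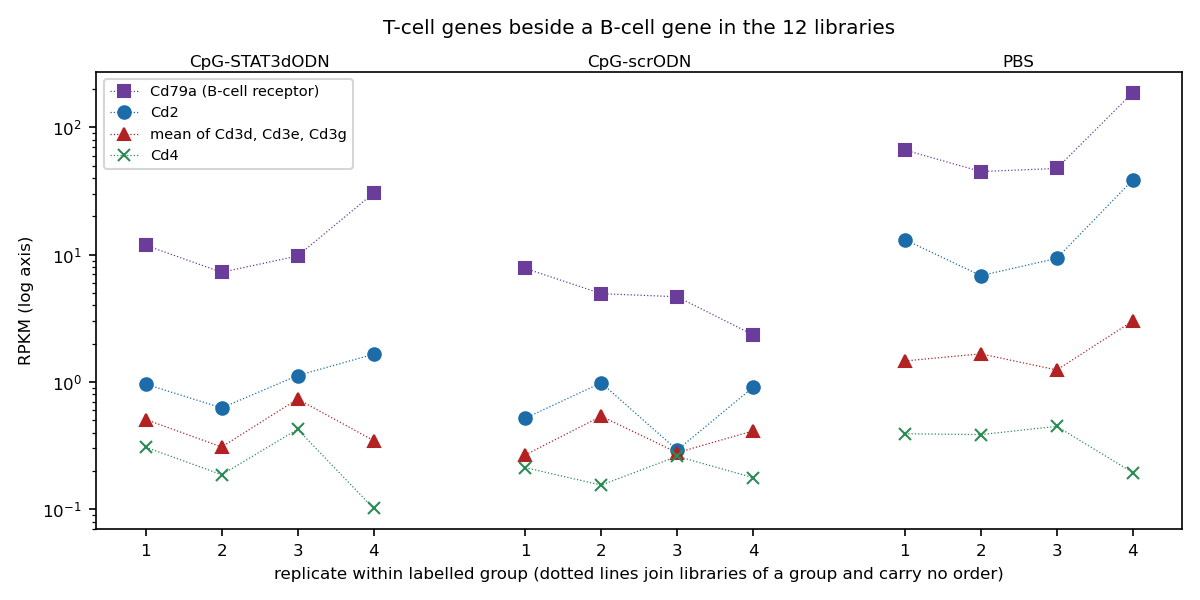
RPKM on a log axis of Cd79a (squares), Cd2 (circles), the mean of the 3 CD3 chain genes (triangles) and Cd4 (crosses) in the 12 libraries, by labelled group; dotted lines only join libraries of a group. In replicate 4 labelled CpG-STAT3dODN, Cd79a at 30.4 and Cd2 at 1.65 RPKM were the highest of their group and Cd4 at 0.102 RPKM the lowest.

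Cd28 and Cd5 were present at trace levels. Cd28, at chr1:60746388-60773359, encodes the main costimulatory receptor and was at 0.0757, 0.0446, 0.108 and 0.159 RPKM in the libraries labelled CpG-STAT3dODN, at 0.0652, 0.0587, 0.0322 and 0.0735 RPKM in those labelled CpG-scrODN, and at 0.207, 0.225, 0.164 and 0.953 RPKM in those labelled PBS. Neither oligonucleotide group overlapped PBS, and replicate 4 labelled PBS lay far above the other 3 of its group. Over all libraries neither difference passed, at -0.30 for CpG-STAT3dODN (4.0-fold, limma adjusted p = 0.509) and -0.36 for CpG-scrODN (6.75-fold, limma adjusted p = 0.244). Without replicate 4 labelled PBS the differences were smaller, at -0.13 and -0.18, and that for CpG-scrODN passed (limma adjusted p = 0.117 and 0.0171), with folds of 2.05 and 3.46. Without both libraries of low Fos they were -0.16 and -0.18 and both passed (limma adjusted p = 0.0225 and 0.00446).

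Cd5, a scavenger-family receptor at chr19:10718107-10739026, was at 0.215, 0.146, 0.339 and 0.152 RPKM in the libraries labelled CpG-STAT3dODN, at 0.0907, 0.231, 0.094 and 0.0697 RPKM in those labelled CpG-scrODN, and at 0.474, 0.416, 0.556 and 0.612 RPKM in those labelled PBS. All libraries labelled PBS were above the rest, and the 4 lay close together. Cd5 fell by 0.32 in CpG-STAT3dODN against PBS (2.41-fold, limma adjusted p = 0.0347) and by 0.43 in CpG-scrODN (4.24-fold, limma adjusted p = 0.00417). The first call was lost without any 1 of 9 libraries (limma adjusted p up to 0.125) and without both libraries of low Fos (-0.27, limma adjusted p = 0.123). It was also lost in the fit to 2 groups, with quantile normalization and with a pseudocount of 0.1 (limma adjusted p = 0.128, 0.134 and 0.0945).

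Both kinases of receptor signalling were lower in the groups labelled with an oligonucleotide than in the libraries labelled PBS. Lck, at chr4:129548344-129573641, was at 1.09, 0.538, 1.11 and 1.05 RPKM in the libraries labelled CpG-STAT3dODN, at 0.884, 1.08, 0.689 and 0.841 RPKM in those labelled CpG-scrODN, and at 2.69, 2.39, 1.85 and 4.75 RPKM in those labelled PBS. The libraries labelled PBS were all above the rest. Lck fell by 0.97 ± 0.19 in CpG-STAT3dODN against PBS (SE, 3.09-fold, limma adjusted p = 0.0235). It fell by 1.02 ± 0.19 in CpG-scrODN (SE, 3.34-fold, limma adjusted p = 0.00996). The CpG-STAT3dODN call was lost without replicate 1 or 2 labelled CpG-STAT3dODN or replicate 1 labelled PBS, with adjusted p up to 0.0906, and in the fit to 2 groups (limma adjusted p = 0.127). In the 2 oligonucleotide groups Lck held 1.51 to 3.02 and 2.0 to 3.31 times the CD3 mean level, and in the libraries labelled PBS 1.44 to 1.84 times.

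Zap70, at chr1:36761798-36782821, was at 0.24, 0.162, 0.258 and 0.168 RPKM in the libraries labelled CpG-STAT3dODN, at 0.207, 0.269, 0.112 and 0.254 RPKM in those labelled CpG-scrODN, and at 0.636, 0.786, 0.618 and 0.988 RPKM in those labelled PBS. It fell by 0.54 ± 0.07 in CpG-STAT3dODN (SE, 3.66-fold, limma adjusted p = 0.00378) and by 0.53 ± 0.07 in CpG-scrODN (SE, 3.59-fold, limma adjusted p = 0.00207), each against PBS. Both calls held without any 1 library, with adjusted p up to 0.0195 and 0.0094. Zap70 stayed at 0.351 to 0.524 times the CD3 mean level in the libraries labelled CpG-STAT3dODN, 0.404 to 0.774 times under the label CpG-scrODN and 0.329 to 0.498 times under the label PBS, ranges that overlap.

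**Figure D3:**
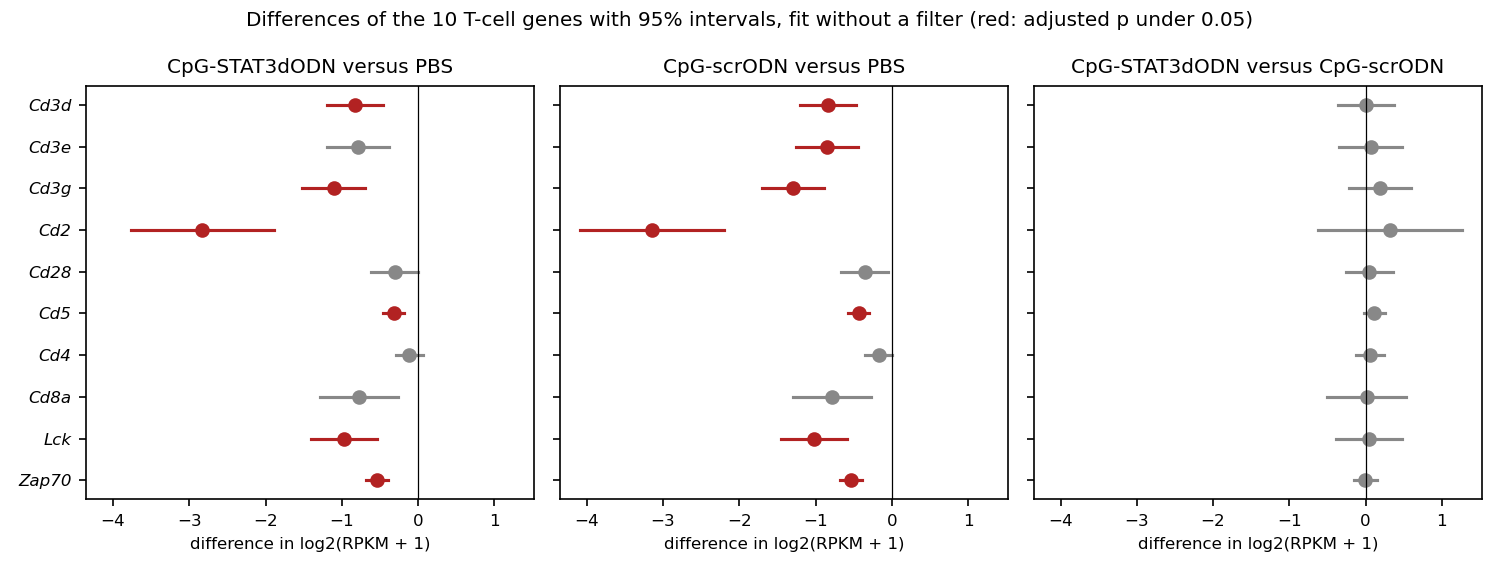
Differences of the 10 T-cell genes on the log2(RPKM + 1) scale (points) with 95% intervals (lines) in the 3 comparisons, from the fit without a filter; red marks an adjusted p under 0.05. In the comparison of the oligonucleotide groups all 10 intervals include 0.

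Between the libraries labelled CpG-STAT3dODN and those labelled CpG-scrODN, 0 of the 10 genes were called. At an unadjusted p under 0.05 there were also 0, where limma had 2.76% of all features, and 0% of features were called after adjustment. The differences ran from -0.0034 for Zap70 (interval -0.15 to 0.15) to 0.32 for Cd2 (interval -0.56 to 1.19), and Cd5 differed by 0.11 (interval -0.03 to 0.25). Groups overlapped for all 10 genes, where 3.29% of features did not overlap.

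By mean level in the libraries labelled PBS, the order was Cd2, Lck, Cd3g, Cd3e, Cd8a, Cd3d, Zap70, Cd5, Cd28 and Cd4. Ranges of neighbours did not overlap between Cd2 and Lck or between Zap70 and Cd5, and did between all the others. In the libraries labelled CpG-STAT3dODN, Cd2 and Lck still led, at 1.09 ± 0.43 and 0.944 ± 0.271 RPKM (SD, n = 4), and overlapped. Lck led those labelled CpG-scrODN, at 0.873 ± 0.16 against 0.675 ± 0.327 RPKM for Cd2 (SD, n = 4), and was above it in 3 of 4 libraries. Cd28 was last in both oligonucleotide groups, at 0.0969 ± 0.0489 and 0.0574 ± 0.0178 RPKM (SD, n = 4).

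Fewer of the other receptor pathway genes were called. Of 35 further genes of T-cell receptor signalling on a list, 33 were in the files and 24 passed the filter. Adapter and enzyme genes that myeloid cells and platelets also use were abundant: Lat and Lcp2, the scaffold proteins LAT and SLP-76, were at 158 ± 7.59 and 89.3 ± 9.50 RPKM in the libraries labelled CpG-STAT3dODN and at 164 ± 3.85 and 86.5 ± 7.51 RPKM in those labelled CpG-scrODN (SD, n = 4). Without a filter limma called 4 of the 33 lower in CpG-STAT3dODN and 6 of 33 lower in CpG-scrODN, each against PBS, and 0 higher. Of the 24, it called 3 and 4 lower, to which the values below refer. Ptprc, the CD45 phosphatase of all leukocytes, was at 9.63 ± 2.15, 6.29 ± 1.57 and 37.6 ± 10.1 RPKM in the libraries labelled CpG-STAT3dODN, CpG-scrODN and PBS (SD, n = 4). Its differences from PBS were -1.85 for CpG-STAT3dODN (limma adjusted p = 0.000818) and -2.40 for CpG-scrODN (limma adjusted p = 8.58e-05). Ptpn22, a phosphatase of T and B cells, fell with differences of -1.93 and -2.21, and Rasgrp1, which activates RAS after receptor engagement, of -0.91 and -0.98. Rasgrp1 passed the filter only through the libraries labelled PBS, and without a filter its limma adjusted p was 0.0055 and 0.00193. Cblb, a ubiquitin ligase, was called in CpG-scrODN, at -1.49 (limma adjusted p = 0.0245). Over the 24 the median was -0.12 for CpG-STAT3dODN and -0.18 for CpG-scrODN, beside -0.01 and -0.05 over all genes tested.

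Of 16 costimulatory and checkpoint genes, 3 were called lower in CpG-STAT3dODN and 4 in CpG-scrODN without a filter, and 2 and 4 of the 7 past the filter. Slamf6 was at 0.588 ± 0.267, 0.301 ± 0.0817 and 3.11 ± 1.79 RPKM in the libraries labelled CpG-STAT3dODN, CpG-scrODN and PBS (SD, n = 4), with differences of -1.3 and -1.57. Slamf6 too passed the filter only through the libraries labelled PBS, and without a filter its limma adjusted p was 0.0273 and 0.00575. For Btla, which B cells also carry, they were -1.38 and -1.62. In the filtered fit Lag3 and Tigit were called in CpG-scrODN, at -0.95 and -1.13 (limma adjusted p = 0.0292 and 0.0404), and without a filter the Tigit call was lost (limma adjusted p = 0.0497 and 0.0634). Tigit passed the filter only with the libraries labelled PBS. Of 24 lineage and homing genes, 3 and 6 were called lower without a filter, and 2 of the 12 past the filter in each comparison. Among them was Ikzf3, which encodes the lymphoid factor Aiolos, at -1.76 for CpG-STAT3dODN and -2.19 for CpG-scrODN. Several further T-cell genes were at low levels. Themis was above 0 in every library, at 0.0272 to 0.0627, 0.0367 to 0.0604 and 0.0779 to 0.303 RPKM for CpG-STAT3dODN, CpG-scrODN and PBS. Every library labelled PBS was above the rest (4.52% and 9.36% of features). Neither Themis difference was called without a filter (limma adjusted p = 0.302 and 0.223). Cd40lg was at most 0.118 RPKM, and Trat1 was listed at 0 in 5 of 12 libraries.

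B-cell markers were lower in the same comparisons as the T-cell genes. The summed level of 16 B-cell markers was 53.4 to 153 RPKM in the libraries labelled CpG-STAT3dODN, 28.7 to 52.1 RPKM under the label CpG-scrODN and 277 to 909 RPKM under the label PBS. Without a filter 10 and 16 of the 16 were called lower in CpG-STAT3dODN and CpG-scrODN. Of the 15 past the filter 14 were called lower in CpG-STAT3dODN and 15 in CpG-scrODN, with medians of -2.40 and -3.14. Of 7 plasma cell genes, 6 passed the filter and 2 and 3 were called lower, as were 2 and 3 of the 7 without a filter. The sum of 10 T-cell genes was 2.88 to 6.1, 2.54 to 5.09 and 17.4 to 58.1 RPKM in the libraries labelled CpG-STAT3dODN, CpG-scrODN and PBS. Cd2, which B cells also carry, gave 6.84 to 38.6 RPKM of that sum under the label PBS, and at most 1.65 RPKM elsewhere. Natural killer markers, 12 genes of which some are also expressed by cytotoxic T cells, summed to 12.2 to 23.0, 13.3 to 26.4 and 23.1 to 35.1 RPKM in the same groups. Of the 4 past the filter, 0 were called in CpG-STAT3dODN and 1 in CpG-scrODN, Il2rb, at -1.24 (limma adjusted p = 0.0142). Il2rb passed the filter only with the libraries labelled PBS, and without a filter its limma adjusted p was 0.0271. Without a filter 1 and 2 of the 12 were called lower. Dendritic-cell markers summed to 76.2 to 95.2, 63.0 to 83.8 and 153 to 269 RPKM, with 3 and 4 of 13 called lower without a filter and 3 and 5 of the 8 past it. The called ones were led by Ly6d, Spib and Wdfy4, which B cells also express. Over the 13 dendritic-cell genes without a filter, the median difference was -0.44 for CpG-STAT3dODN and -0.54 for CpG-scrODN. No B-cell marker was at 0 in any library. The part of these other cell types in the values of Cd2, Cd5, Cd4, Cd8a, Lck and Zap70 was not tested.

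**Figure D4:**
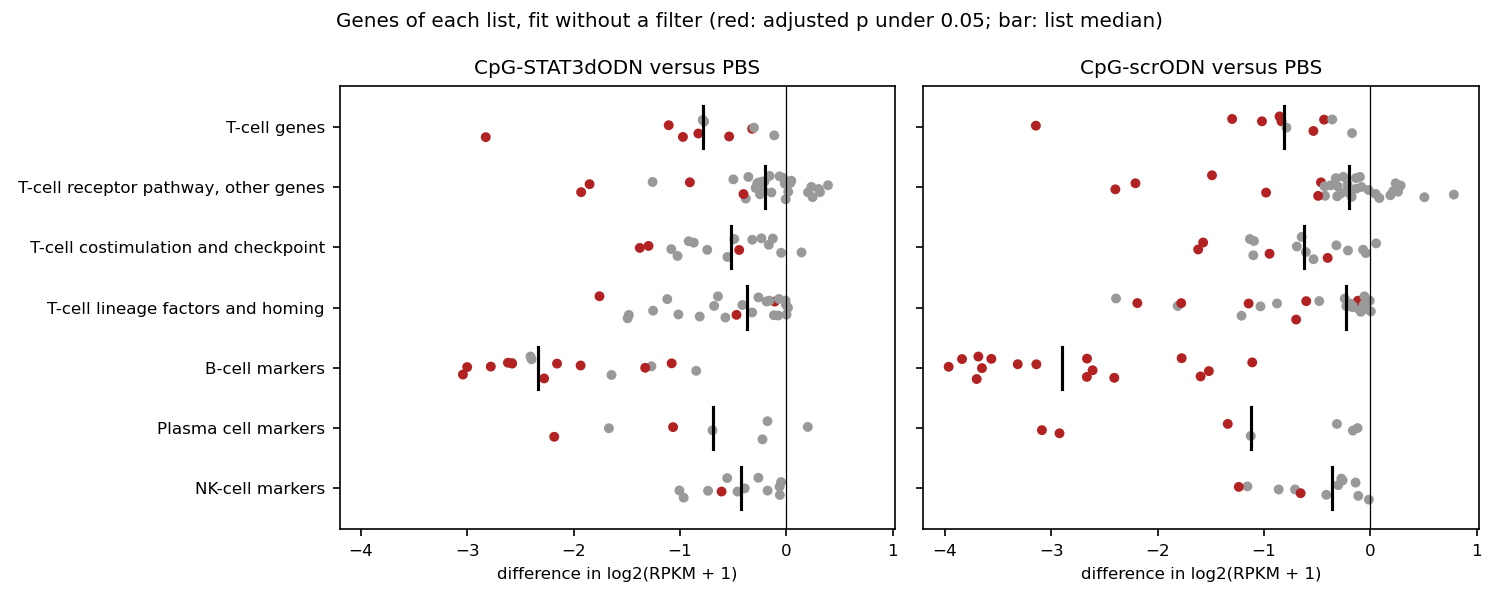
Differences on the log2(RPKM + 1) scale of each gene of 7 lists against PBS, from the fit without a filter, with CpG-STAT3dODN on the left and CpG-scrODN on the right; red points have an adjusted p under 0.05 and bars are list medians. The T-cell medians are -0.78 and -0.81 and the B-cell medians -2.34 and -2.90. The pseudocount of 1 shrinks differences more for genes of low RPKM, so sizes are not directly comparable between these lists.

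Leukaemic progenitor and erythroid markers were followed as well. Of 12 progenitor genes tested without a filter, 1 was called higher in CpG-STAT3dODN, Runx1, at 0.30 (limma adjusted p = 0.0456), and 5 were called lower in CpG-scrODN. The share of all features called higher is not given here, so the Runx1 call has no background beside it. Of the 11 past the filter, Runx1 among them, 0 were called in CpG-STAT3dODN. In CpG-scrODN 4 were called, the granule genes Mpo, Prtn3, Elane and Ctsg, at -2.09 to -1.93. Of 11 erythroid genes 0 were called in either comparison. Of 13 immediate-early genes 1 was called lower in CpG-STAT3dODN, Nr4a1, at -1.3, and 0 in CpG-scrODN.

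Likeness between genes was measured as Pearson correlation of log2(RPKM + 1) over the 12 libraries after subtracting each group's mean, for the 3 members past the filter, and is a description. The nearest genes to Cd2 were Bcl2a1d, C1galt1 and Ccdc50, at 0.974, 0.973 and 0.971. Those nearest to Cd3g were Rassf3, Ifitm3 and Acap2, at 0.885, 0.885 and 0.883. Camkk2, Phf2 and Slc30a5 were nearest to Lck, at 0.951, 0.948 and 0.945. The 3 sets shared no gene. Cd2 was at 38.6 RPKM in replicate 4 labelled PBS and at 6.84 to 13.1 RPKM in the rest of that group. That library thus weighs heavily in the Cd2 correlations, which were not recomputed without it. With group means left in, where the gap to PBS counts too, Gimap5 and Gimap8, GTPase genes of lymphocytes, were among the nearest to Cd2, at 0.994 and 0.992, with Ccdc50 at 0.994.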

How the data were processed

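RNA of 12 mouse spleen libraries, 4 per labelled group, was deposited as RPKM values per gene symbol by the authors. Per the submitters' processing notes, TopHat 1.3.1, Partek 6.12.0713 and the mm10 build were used, in roles that those notes leave out. RPKM values are not counts, so no count test was run. Groups came from the labels, which the column headers contradict. limma 3.58.1 in R 4.3.3 was fitted to log2(RPKM + 1) of all 12 libraries with a group term and a mean-variance trend, with Benjamini-Hochberg adjustment over all features tested and a threshold of 0.05. The fit used the 10886 genes that reached an RPKM of 1 in 4 or more libraries. Since 7 of the 10 T-cell genes fail that filter, they were taken from the same fit to all 19308 features above 0 in at least 1 library. Depth was estimated from the steps between low RPKM values, and 59.1% to 65.7% of values came out as whole reads within 0.05 read, so reads were not recovered. Intervals are 95%. The scripts were tested on simulated data. The T-cell genes and all gene lists were chosen with earlier results of these data known. Named genes were all 10 members, up to 4 genes of each list with the smallest adjusted p among those called in a comparison (otherwise up to 2 with the highest mean), and the 3 genes most like each member past the filter after subtracting group means. Kit, Cd8b1, Themis, Cd40lg, Trat1, Gimap5, Gimap8 and Runx1 were named outside that rule, after their values were seen. Alternatives were another pseudocount, other filters, other scalings, fits to 2 groups, a replicate block and leaving libraries out. One called gene of the lineage and homing list is not reported here.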

Additional observations from a re-analysis of the deposited data

Results flagged for a closer look

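Among 30 sets of 4 libraries (10 genes in 3 groups), 3 had a library far from the other 3 by Dixon's criterion, which chance alone meets in about 1 set in 20. Lck was at 0.538 RPKM in replicate 2 labelled CpG-STAT3dODN, where the nearest of the other libraries was at 1.05 RPKM. Cd5 was at 0.231 RPKM in replicate 2 labelled CpG-scrODN, where the nearest was at 0.094 RPKM. Cd28 was at 0.953 RPKM in replicate 4 labelled PBS, a library of low Fos, where the nearest was at 0.225 RPKM.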

How the results depend on the processing

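For the genes past the filter, 3 calls against PBS in each comparison became 1 and 1 with a filter at an RPKM of 5, and 6 and 7 with no filter, for CpG-STAT3dODN and CpG-scrODN. In the fit to 2 groups the CpG-STAT3dODN count was 1. Leaving out 1 library gave 2 to 3 calls for CpG-STAT3dODN and 3 to 3 for CpG-scrODN. Cd2 and Cd3g passed that filter only with the libraries labelled PBS, where they were highest, so these filtered counts lean on the filter. Over all 10 genes without a filter, 6 calls for CpG-STAT3dODN became 1 in the fit to 2 groups, 3 with the filter at an RPKM of 1, 3 with quantile normalization, and 2 to 5 without 1 library. For CpG-scrODN 7 calls became 4 in the fit to 2 groups, 3 with the filter, and 4 to 8 without 1 library. The CpG-STAT3dODN count was 2 without replicate 1 or 2 labelled CpG-STAT3dODN, and 3 without its replicate 4, replicate 1, 3 or 4 labelled CpG-scrODN or replicate 1 labelled PBS. The CpG-scrODN count was 4 without replicate 1, 3 or 4 labelled CpG-scrODN. With the replicate block the filtered counts were 3 and 3 and the unfiltered counts 2 and 6. The labels do not tie the numbers to a shared animal or batch. Of 12 same-numbered pairs 5 deviated together at a correlation over 0.1, among them all 3 pairs of replicates 4, at 0.151 to 0.817, the highest between the libraries of low Fos, and 3 of 12 libraries correlated best with their own number. Between CpG-STAT3dODN and CpG-scrODN 0 genes were called under every alternative run. There, differences near 0 changed sign. Cd3d was -0.0457 with a pseudocount of 0.1, -0.0199 with quantile normalization, -0.0022 with size factors, -0.0130 without both libraries of low Fos and -0.087 to 0.0669 without 1 library. Cd8a was -0.0185 and Lck -0.0034 with quantile normalization, and -0.0561 to 0.103 and -0.0026 to 0.154 without 1 library. Zap70 was 0.00078 with a pseudocount of 0.1, 0.0120 without both libraries of low Fos and -0.0435 to 0.0198 without 1 library. Cd3e and Cd4 ran from -0.0108 to 0.144 and from -0.0059 to 0.118 without 1 library. The cause was not tested. A pseudocount of 0.1 enlarged most differences from PBS, such as Cd3g to -1.89 for CpG-STAT3dODN and -2.35 for CpG-scrODN. In its lowest library Cd28 stood for an estimated 5.0 reads, the fewest of the 10 genes.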
